A study of Mus musculus with 32 samples.

Results

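Stat2, Irf1, Irf7, Irf9, Ifit1, Ifit3, Isg15, Rsad2 and Gbp2 are 9 genes of the interferon response. They were chosen by symbol among the 36595 genes of the deposited table, 16428 of which passed the filter on low counts, all 9 of these genes included. RNA sequencing covered 32 libraries made from mouse islets in culture. They form 4 groups of 8, in which hIAPP and mIAPP islets were kept at 16.7 mM glucose, or hIAPP and mIAPP islets at 11.1 mM. In hIAPP mice the human version of the gene of islet amyloid polypeptide (IAPP, a hormone co-secreted with insulin) replaced the mouse Iapp locus by homologous recombination, and mIAPP mice were their wild-type littermates, all on a C57BL/6NHsd background. Islets of male and female mice aged 10 weeks were isolated with collagenase, recovered overnight at 11.1 mM glucose and cultured for 48 h at either glucose level, in 8 experiment sets that each held the 4 groups. Amyloid deposits form from the human peptide and not from that of the mouse, and the title of the study concerns such deposits in islets. The number of animals behind a set is not stated. The p values measure differences against the scatter left after group and set are accounted for, which may be partly technical.

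Cells that meet an interferon switch on a shared set of genes. Type I interferons act through the receptor chains Ifnar1 and Ifnar2 and the kinases Jak1 and Tyk2, which lead STAT2 and IRF9 to join in the complex ISGF3. That complex binds the interferon-stimulated response element (ISRE), whereas interferon gamma acts through a different element, GAS. IRF7 raises transcription of interferon genes in a feed-forward loop, and IRF1 is an early target of interferon gamma and of NF-kB. Ifit1 and Ifit3 encode RNA-binding antiviral proteins, Isg15 a ubiquitin-like modifier, Rsad2 the antiviral enzyme viperin, and Gbp2 a guanylate-binding GTPase that acts against intracellular pathogens. In islets, interferon signalling is known for its part in beta cell autoimmunity and in responses to viral infection.

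Promoter stretches are shown because ISRE and GAS are the elements on which these pathways act. RefSeq promoter windows of 300 bases on GRCm38.p6, 250 before the start and 50 after it, were found for 9 of the 9 genes (11 windows), and were searched on both strands for GAAANNGAAA (ISRE), TTCNNNGAA (GAS) and NF-kB. An ISRE match was present in 6 of 9 genes, against 3.44% of all 32851 windows. It began at base -222 in Stat2, at -104 and -85 in Ifit1, at -156 and -122 in Ifit3, at -120 in Rsad2 and at -59 in Gbp2. In Isg15 there were 3 overlapping matches, from -78 to -66. Irf1 had no ISRE match but a GAS match at -90 (8.3% of windows) and an NF-kB match at -13 (4.51% of windows). Neither Irf7 nor Irf9 held any of these letters in its window. The stretches lie at chr10:128270251-128270310 (Stat2, plus strand), chr11:53769899-53770013 (Irf1, plus), chr19:34640760-34640838 (Ifit1, plus), chr19:34583348-34583441 (Ifit3, plus), chr4:156200850-156200921 (Isg15, minus), chr12:26456538-26456597 (Rsad2, minus) and chr3:142620579-142620638 (Gbp2, plus). Capitals mark the matches, 5′ to 3′ on the strand of the gene; those of Irf1 are GAS and then NF-kB, all others are ISRE. A match describes the letters and shows no binding.
Stat2: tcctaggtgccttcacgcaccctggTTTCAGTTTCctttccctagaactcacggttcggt
Irf1: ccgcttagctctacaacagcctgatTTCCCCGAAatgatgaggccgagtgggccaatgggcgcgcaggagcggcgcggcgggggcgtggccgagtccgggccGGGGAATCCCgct
Ifit1: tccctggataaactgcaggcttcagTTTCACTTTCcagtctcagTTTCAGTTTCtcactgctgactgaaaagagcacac
Ifit3: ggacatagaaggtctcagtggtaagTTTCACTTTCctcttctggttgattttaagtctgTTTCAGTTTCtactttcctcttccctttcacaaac
Isg15: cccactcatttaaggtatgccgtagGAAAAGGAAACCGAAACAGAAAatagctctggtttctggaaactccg
Rsad2: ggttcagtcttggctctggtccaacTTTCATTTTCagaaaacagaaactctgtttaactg
Gbp2: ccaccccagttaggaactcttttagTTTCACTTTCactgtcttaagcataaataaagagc

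The insulin-producing tissue of the label carried its defining transcripts, with 9 islet markers summing to at least 148525 CPM (counts scaled to a common library size, after TMM normalization) in every library. Totals were 24.7 to 43.7 M counts per library in hIAPP and 24.5 to 37.1 M in mIAPP islets at 16.7 mM, and 18.8 to 34.8 M in hIAPP and 16.1 to 29.1 M in mIAPP islets at 11.1 mM. Iapp stood at 9764 to 11582 CPM in hIAPP and 16864 to 30408 CPM in mIAPP islets at 16.7 mM, and at 5647 to 7912 CPM in hIAPP and 8645 to 15614 CPM in mIAPP islets at 11.1 mM, so the genotypes did not overlap at either glucose level. The sources used here do not say if reads were also matched to human IAPP. The share of counts on the 13 mitochondrial genes was 4.06 ± 1.63% for hIAPP and 11.3 ± 11.2% for mIAPP islets at 16.7 mM, and 16.6 ± 7.83% for hIAPP and 18.2 ± 11.6% for mIAPP islets at 11.1 mM (SD, n = 8 each). One mIAPP library at 16.7 mM, that of set 7, had a share of 37%, and one hIAPP library at 16.7 mM, that of set 6, was the highest of its group for 6 of the 9 genes.

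At 16.7 mM glucose, the level of Gbp2 in hIAPP islets was 3.04 times that in mIAPP islets, and it was the 1 gene of the 9 that passed the test (edgeR quasi-likelihood test, Benjamini-Hochberg adjusted p under 0.05 over all genes tested). Of all 16428 genes, 20.5% passed, 9.27% as higher and 11.2% as lower. The median log2 fold change of the 9 genes was -0.01, as was that of all genes, and 4 of the 9 had an unadjusted p under 0.05. At 11.1 mM, 0 of the 9 genes passed, against 0.128% of all genes. There 0 of them reached an unadjusted p under 0.05, and DESeq2 and limma voom also called 0. Log2 fold changes there ran between -0.35 for Ifit3 and 0.35 for Rsad2, with a smallest adjusted p of 0.739.

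More of the 9 genes passed with glucose, as did a larger share of all genes, and most of the calls among the 9 were lower. In hIAPP islets their count was near the share of all genes. In hIAPP islets 6 of 9 passed, 5 lower and 1 higher at 16.7 than at 11.1 mM, where 65.5% of all genes passed (33.3% lower, 32.2% higher). With the mitochondrial level as covariate 2 of 9 passed there, against 22.5% of all genes, and among libraries under 10% mitochondrial counts 3 of 9, against 22.6%. In mIAPP islets 6 of 9 passed as well, 5 lower and 1 higher, against 47.5% of all genes (22.7% lower, 24.9% higher). Their median log2 fold change was -0.36 in hIAPP and -0.48 in mIAPP islets, beside -0.02 and -0.03 for all genes. Stat2, Irf1, Irf7 and Irf9 were lower at 16.7 mM in both genotypes. Ifit1 and Gbp2 passed in hIAPP islets and Ifit3 and Rsad2 in mIAPP islets. A change of the glucose effect with genotype was called for Gbp2 among the 9 genes, and for 3.12% of all genes. The comparisons share libraries, so their values are set side by side and not correlated.

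**Figure D1:**
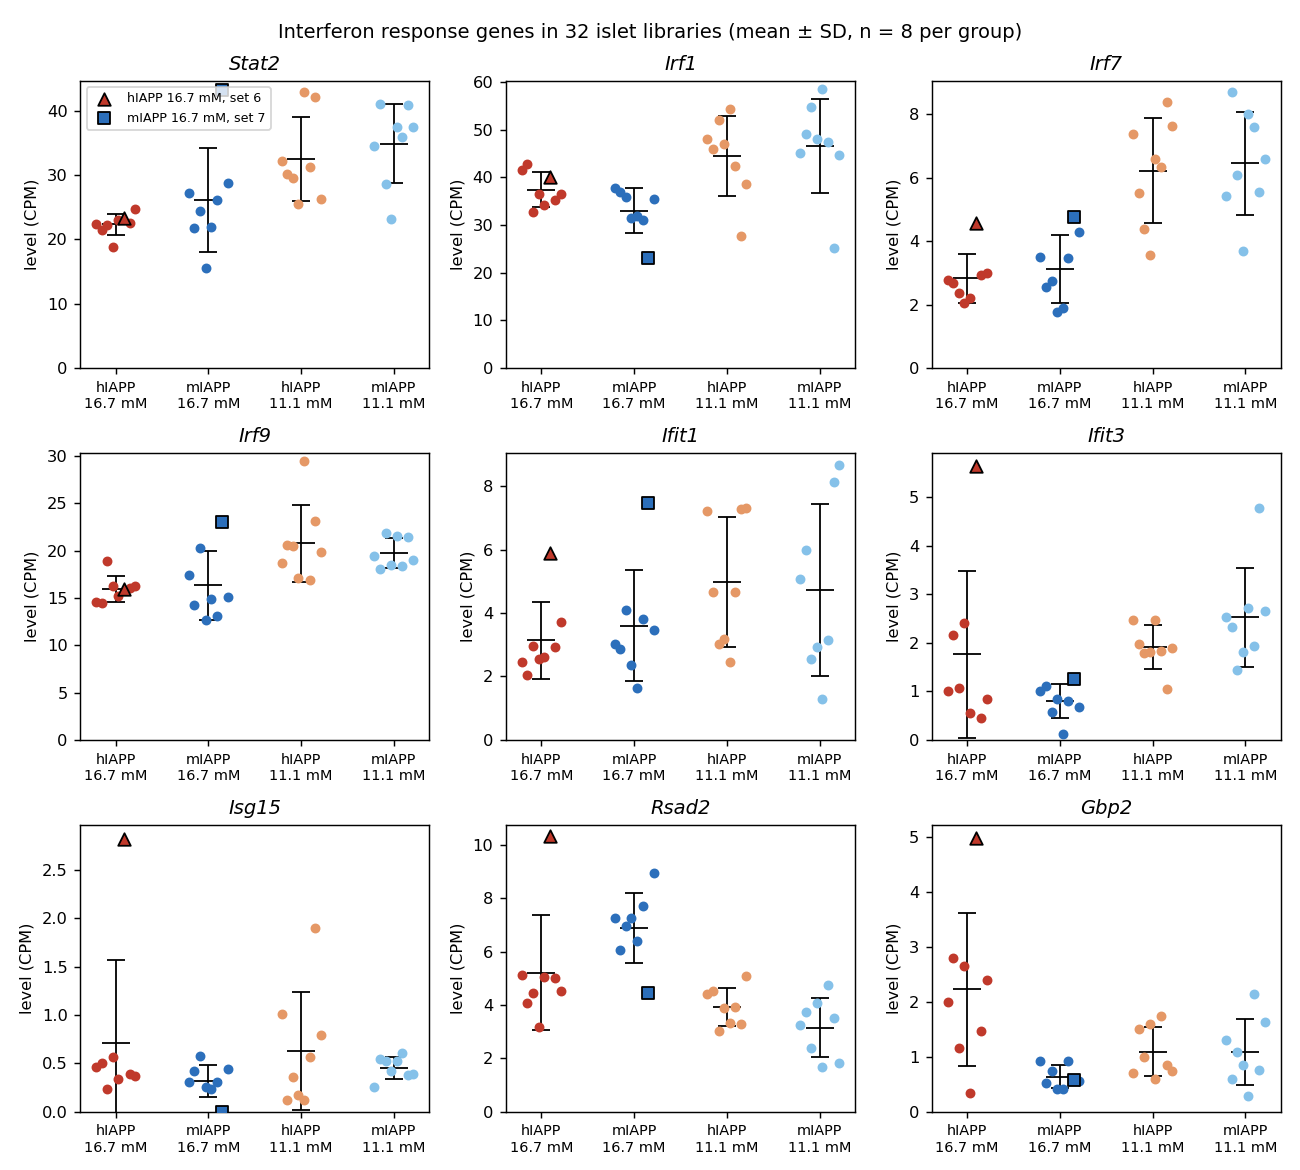
Level of each of the 9 genes (CPM, vertical axis) in the 4 groups; each point is 1 library, and the bars give the mean and SD of 8 libraries. The hIAPP 16.7 mM library of set 6 (triangle) reaches 2.82 CPM for Isg15 and 10.3 CPM for Rsad2, above all others, and the mIAPP 16.7 mM library of set 7 (square) reaches 43.2 CPM for Stat2.

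**Figure D2:**
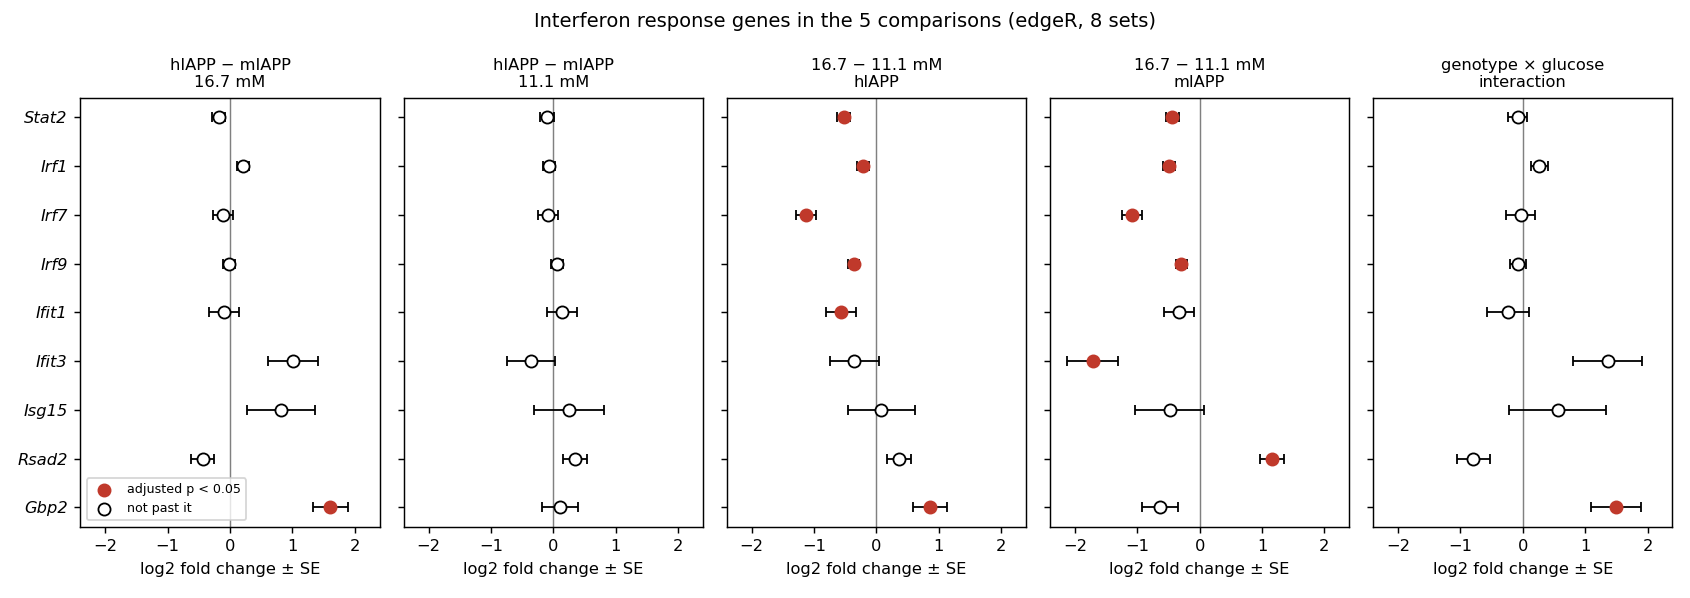
Log2 fold change with its SE (horizontal axis) of the 9 genes in the 5 comparisons; filled points passed an adjusted p of 0.05. Stat2, Irf1, Irf7 and Irf9 lie below 0 in both glucose comparisons, and Gbp2 is the filled point at 1.61 in the genotype comparison at 16.7 mM.

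The 3 factors of the type I interferon arm, Stat2, Irf9 and Irf7, fell with glucose in both genotypes. Stat2 (chr10:128270559-128292849 on GRCm38, plus strand), the signal transducer of ISGF3, stood at 18.9 CPM in the lowest, 22.5 in the median and 24.7 in the highest hIAPP library at 16.7 mM, against 25.5, 30.7 and 42.8 CPM at 11.1 mM. All 8 hIAPP libraries at 16.7 mM lay below all 8 at 11.1 mM, and Stat2 was the 1 gene of the 9 with such a gap there (22.7% of all genes had one). Its log2 fold change was -0.52 ± 0.11 (SE; adjusted p = 0.000139), with lower values at 16.7 mM in 8 of 8 sets. In mIAPP islets Stat2 stood at 15.5, 25.3 and 43.2 CPM at 16.7 mM, against 23.1, 36.7 and 41.1 CPM at 11.1 mM. These groups overlapped, the set 7 library at 16.7 mM being the highest of all, and the log2 fold change was -0.44 ± 0.11 (adjusted p = 0.00145, lower in 7 of 8 sets).

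Irf9 (chr14:55603571-55610030, plus), the DNA-binding subunit of ISGF3, stood at 14.5, 16 and 18.9 CPM in hIAPP islets at 16.7 mM, against 16.9, 20.2 and 29.5 CPM at 11.1 mM. The groups overlapped slightly, and Irf9 was lower at 16.7 mM in 8 of 8 sets, at a log2 fold change of -0.37 ± 0.09 (adjusted p = 0.00148). In mIAPP islets it stood at 12.6, 15.0 and 23.0 CPM at 16.7 mM, against 18.05, 19.2 and 21.8 CPM at 11.1 mM, with a log2 fold change of -0.29 ± 0.09 (adjusted p = 0.0135, lower in 7 of 8 sets). Sets 3 and 7 were the libraries at 16.7 mM inside or above the range at 11.1 mM. The call in mIAPP islets was lost without the block for set, at -0.28 (adjusted p = 0.0561). The Irf9 interval overlaps Rnf31 on the same strand, and the 2 genes share 1.69% of the 31-base stretches of Irf9 transcripts, so some of its count is uncertain.

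Irf7 (chr7:141262706-141266481, minus), itself induced through ISGF3, had the largest fall of these factors. It stood at 2.07, 2.73 and 4.58 CPM in hIAPP islets at 16.7 mM, against 3.58, 6.47 and 8.40 CPM at 11.1 mM. Only the set 6 library at 16.7 mM reached into the range at 11.1 mM. The log2 fold change was -1.13 ± 0.16 (adjusted p = 1.5e-06), and Irf7 was lower at 16.7 mM in 8 of 8 sets. In mIAPP islets it stood at 1.78, 3.10 and 4.78 CPM at 16.7 mM, against 3.70, 6.35 and 8.70 CPM at 11.1 mM, a log2 fold change of -1.09 ± 0.16 (adjusted p = 6.11e-06, lower in 8 of 8 sets). The groups overlapped through sets 7 and 8 at 16.7 mM and set 4 at 11.1 mM. The calls of Irf7 in both genotypes and of Stat2 in mIAPP islets were kept under all 19 alternatives tried. The interval of Irf7 overlaps Phrf1 on the opposite strand, with 0.361% of 31-base stretches shared, and whether counting used strand is not stated.

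None of these 3 factors passed the test between genotypes. At 16.7 mM the log2 fold change between hIAPP and mIAPP islets was -0.18 ± 0.11 for Stat2 (adjusted p = 0.211), -0.01 ± 0.09 for Irf9 (0.932) and -0.12 ± 0.16 for Irf7 (0.617). Stat2 was at -0.10 without the set 7 mIAPP library (adjusted p = 0.52) and at -0.065 without set 7 (0.705). Their interaction values were -0.08 ± 0.15, -0.08 ± 0.13 and -0.04 ± 0.23, with adjusted p values of 0.808, 0.804 and 0.951.

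Residual levels of Stat2, Irf9 and Irf7 had positive correlations with the mitochondrial level. After group and set means were removed, the correlation with the log2 mitochondrial level over the 32 libraries was 0.704 for Stat2, 0.544 for Irf9 and 0.34 for Irf7, as a description of libraries that share sets. Within the 4 groups of 8 libraries it was 0.498 to 0.944 for Stat2, 0.279 to 0.929 for Irf7 and -0.27 to 0.57 for Irf9. With that level as a covariate, the difference of Stat2 in hIAPP islets was -0.09 (adjusted p = 0.697) and that of Irf9 -0.07 (0.769), whereas that of Irf7 was -0.82 (0.0171). Among the libraries under 10% mitochondrial counts (8 hIAPP and 5 mIAPP at 16.7 mM, 2 hIAPP and 3 mIAPP at 11.1 mM), Stat2 was at -0.48 (adjusted p = 0.0261), Irf9 at -0.15 (0.444) and Irf7 at -0.92 (0.0196) in hIAPP islets. In mIAPP islets the covariate gave -0.27 for Stat2 (adjusted p = 0.0184), -0.18 for Irf9 (0.123) and -0.98 for Irf7 (5.49e-05), and Irf9 was at -0.33 among the libraries under 10% (0.0538).

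**Figure D3:**
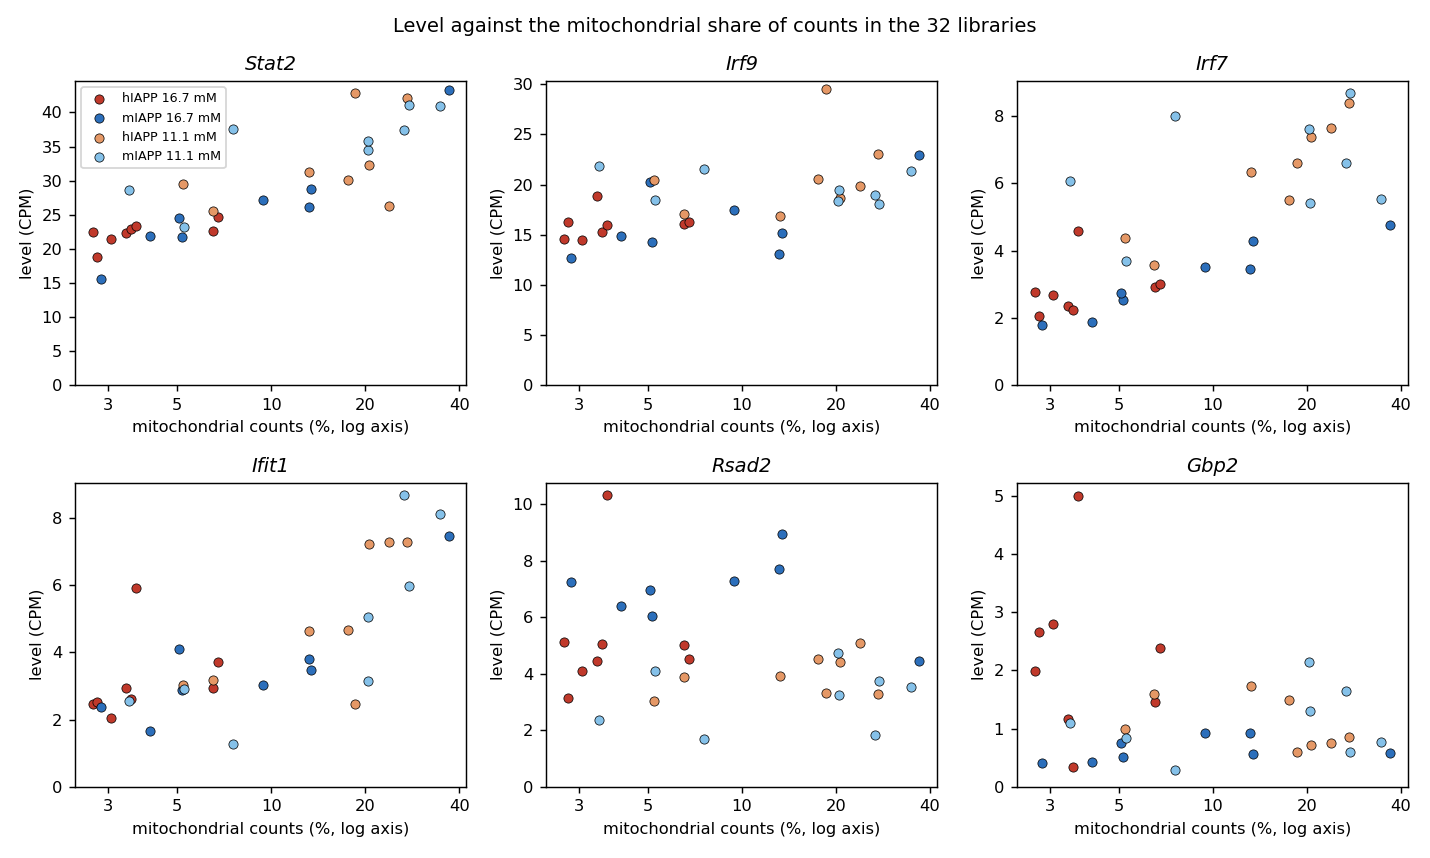
Level (CPM, vertical axis) against the share of counts on mitochondrial genes (percent, log axis) for 6 of the 9 genes; each point is 1 of 32 libraries, coloured by group. Stat2 and Ifit1 are higher in libraries with a larger share, Rsad2 and Gbp2 are not, and the hIAPP 16.7 mM libraries all lie between 2.68 and 6.76%.

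Macrophage markers were lower at 16.7 mM as well. The summed level of 15 macrophage markers was 104 to 214 CPM in hIAPP and 105 to 233 CPM in mIAPP islets at 16.7 mM, and 283 to 485 CPM in hIAPP and 223 to 425 CPM in mIAPP islets at 11.1 mM. Among all genes, 33.3% were lower at 16.7 mM in hIAPP and 22.7% in mIAPP islets, the shares against which the marker counts here stand. Of the 15 macrophage markers, 11 fell with glucose in hIAPP and 12 in mIAPP islets, 0 rose, and 0 were absent from a whole group. Irf8 and Irf5, factors abundant in myeloid cells, fell too, by 1.42 and 1.41 on the log2 scale in hIAPP islets. Lymphocyte and plasmacytoid markers summed to 1.56 to 2.85 CPM in hIAPP and 1.86 to 12.1 CPM in mIAPP islets at 16.7 mM, and to 6.32 to 10.4 CPM in hIAPP and 4.90 to 13.7 CPM in mIAPP islets at 11.1 mM. Of those 12, 4 passed the filter, and 4 fell in hIAPP and 1 in mIAPP islets; Gzmb was at 0 in all 4 groups and Ncr1 in 3. Of 12 endothelial markers, which summed to 27.6 to 82.5 CPM in hIAPP and 53.8 to 176 CPM in mIAPP islets at 16.7 mM and to 84.7 to 230 CPM in hIAPP and 88.6 to 249 CPM in mIAPP islets at 11.1 mM, 12 fell with glucose in hIAPP and 7 in mIAPP islets. Of 9 islet markers, 7 fell and 1 rose in hIAPP islets, and 4 fell and 0 rose in mIAPP islets. Their part in the fall of Stat2, Irf9 and Irf7 was not tested. In bulk islets, fewer cells of a type and less RNA per cell cannot be told apart.

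Irf1 (chr11:53770014-53778374, plus), the factor with the GAS and NF-kB matches, was the most abundant of the 9 per kilobase of exon. It reached 9.42 ± 0.914 CPM per kilobase in hIAPP islets at 16.7 mM, and the others followed in the order Stat2, Irf9, Rsad2, Ifit1, Ifit3, Isg15, Gbp2 and Irf7. From Rsad2 at 1.20 to Irf7 at 0.749 ± 0.208 CPM per kilobase, neighbours in this order differed by less than their SD. Irf1 was lower at 16.7 mM in both genotypes. It stood at 23.1, 33.7 and 37.7 CPM in mIAPP islets at 16.7 mM, against 25.2, 47.7 and 58.4 CPM at 11.1 mM. The log2 fold change was -0.49 ± 0.10 (adjusted p = 0.000187, lower in 8 of 8 sets), although the set 7 libraries were the lowest of both groups. In hIAPP islets it stood at 32.7, 36.5 and 42.8 CPM at 16.7 mM, against 27.7, 46.5 and 54.3 CPM at 11.1 mM, a log2 fold change of -0.22 ± 0.09 (adjusted p = 0.0447, lower in 7 of 8 sets). The groups overlapped in both genotypes. Irf1 overlaps Gm17334 on the opposite strand, with 1.85% of its 31-base stretches shared.

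That call in hIAPP islets was lost without any 1 of sets 1 to 6, at log2 values of -0.24 to -0.16, and without the block for set at -0.25 (adjusted p = 0.0958). Between genotypes at 16.7 mM, Irf1 was higher in hIAPP islets in 7 of 8 sets, at a log2 fold change of 0.20 ± 0.09 that did not pass (adjusted p = 0.122). The groups overlapped, and the interaction was 0.27 ± 0.13 (adjusted p = 0.287). Its correlation with the mitochondrial level was -0.372, the opposite sign to that of Stat2, and with that level as covariate Irf1 was at -0.44 in hIAPP islets (adjusted p = 0.0288).

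Among the IFIT genes, Ifit3 (chr19:34583531-34588731, plus) fell with glucose in mIAPP islets. It stood at 0.120, 0.817 and 1.25 CPM in mIAPP islets at 16.7 mM, against 1.45, 2.43 and 4.77 CPM at 11.1 mM. The mIAPP libraries at 16.7 mM held 4 to 39 counts. The lowest, that of set 5, had 4 counts, where 3 counts would be 0.09 CPM. The 8 libraries of one group all lay below the 8 of the other, as for 4.05% of all genes, and the log2 fold change was -1.72 ± 0.40 (adjusted p = 0.00114). In hIAPP islets at 16.7 mM it stood at 0.462, 1.04 and 5.64 CPM, against 1.05, 1.86 and 2.47 CPM at 11.1 mM, with a log2 fold change of -0.36 ± 0.39 (adjusted p = 0.433). The set 6 library held the value of 5.64 CPM, and without it the log2 fold change was -0.77 (adjusted p = 0.0595).

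Between genotypes at 16.7 mM, the log2 fold change of Ifit3 (hIAPP over mIAPP) was 1.01 ± 0.40, positive in 6 of 8 sets and short of the threshold (adjusted p = 0.0761). Without the set 6 hIAPP library this was 0.59 (adjusted p = 0.25), and without set 7 it was 1.27 (0.0302). The interaction was 1.36 ± 0.55 and positive in 8 of 8 sets, but did not pass (adjusted p = 0.184). DESeq2 called the genotype difference at 1.02 (adjusted p = 0.0396).

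Counts of Ifit3 cannot be fully told apart from those of its neighbour Ifit3b, which begins 19238 bases beyond its end on the same strand. Of the 31-base stretches in its transcripts, 61.8% also occur in Ifit3b. With the counts of both genes added, the level was 2.50 ± 2.09 CPM in hIAPP and 1.18 ± 0.279 CPM in mIAPP islets at 16.7 mM. This sum passed the genotype test, at a log2 fold change of 0.91 (adjusted p = 0.0372), but not without the set 6 hIAPP library, at 0.56 (0.115). Without that library the sum was lower at 16.7 mM in hIAPP islets, at -0.97 (adjusted p = 0.00153), against -0.59 with it (0.083). Its highest hIAPP library stood at 7.20 CPM and the median at 1.90 CPM. Ifit3b alone fell with glucose in both genotypes, by 0.99 on the log2 scale in hIAPP (adjusted p = 0.0118) and by 1.64 in mIAPP islets (0.000536).

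Ifit1 (chr19:34640871-34650009, plus), which recognises RNA lacking the cap methylation of the host, was called lower at 16.7 mM in hIAPP islets and not in mIAPP islets. It stood at 2.06, 2.76 and 5.90 CPM in hIAPP islets at 16.7 mM, against 2.46, 4.65 and 7.29 CPM at 11.1 mM. The groups overlapped over most of their range, and the log2 fold change of -0.56 ± 0.24 passed narrowly (adjusted p = 0.0436, lower in 6 of 8 sets). In mIAPP islets it stood at 1.65, 3.25 and 7.46 CPM at 16.7 mM, against 1.28, 4.10 and 8.68 CPM at 11.1 mM, and the log2 fold change of -0.32 ± 0.24 did not pass (adjusted p = 0.276), with the range at 16.7 mM inside that at 11.1 mM. The interaction was -0.24 ± 0.34 (adjusted p = 0.751). The correlation with the mitochondrial level after group and set were removed was 0.597. With that level as covariate the hIAPP value turned to 0.30 (adjusted p = 0.553), and the call was also lost without sets 1, 2, 4, 7 or 8, at -0.59 to -0.41, and without the block for set, at -0.66 (0.0838). Ifit1 shares 9.16% of its 31-base stretches with Ifit1bl2.

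Isg15 (chr4:156199424-156200818, minus), whose product is attached to other proteins like ubiquitin, was among the lowest of the 9 in counts and passed in no comparison. It stood at 0.239, 0.422 and 2.82 CPM in hIAPP islets at 16.7 mM, against 0.000, 0.310 and 0.571 CPM in mIAPP islets at 16.7 mM. The lowest of these was 0 counts in the set 7 mIAPP library, where 3 counts would be 0.134 CPM, and the highest was the set 6 hIAPP library, with the next at 0.563 CPM. The genotype difference on the log2 scale was 0.81 ± 0.54 (adjusted p = 0.281). It was 0.37 without the set 6 hIAPP library (0.641), 0.58 without the set 7 mIAPP library (0.45) and 0.12 without both (0.887). At 11.1 mM it stood at 0.118, 0.461 and 1.90 CPM in hIAPP and 0.260, 0.471 and 0.607 CPM in mIAPP islets. Glucose effects were 0.08 ± 0.54 in hIAPP (adjusted p = 0.904) and -0.48 ± 0.55 in mIAPP islets (0.486), and the first became -0.38 without the set 6 library.

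Rsad2 (chr12:26442746-26456452, minus) moved against the factors: it rose with glucose in mIAPP islets. Viperin, its product, makes a nucleotide analogue that stops viral RNA synthesis. It stood at 4.47, 7.11 and 8.94 CPM in mIAPP islets at 16.7 mM, against 1.68, 3.39 and 4.75 CPM at 11.1 mM. Only the set 7 library at 16.7 mM fell inside the range at 11.1 mM. The log2 fold change was 1.16 ± 0.19 (adjusted p = 2.7e-05, higher in 8 of 8 sets), a 2.23-fold difference. In hIAPP islets Rsad2 stood at 3.16, 4.76 and 10.3 CPM at 16.7 mM, against 3.03, 3.92 and 5.10 CPM at 11.1 mM, and the log2 fold change of 0.36 ± 0.19 did not pass (adjusted p = 0.0906).

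Between genotypes at 16.7 mM, Rsad2 stood lower in hIAPP islets in 6 of 8 sets, at a log2 fold change of -0.44 ± 0.19 that did not pass (adjusted p = 0.0877). Without the set 6 hIAPP library, which held the value of 10.3 CPM, it was -0.56 and passed (adjusted p = 0.0376), and limma voom called it at -0.46 (0.0347). The interaction was -0.79 ± 0.27 (adjusted p = 0.107), and it passed at -0.99 without both the set 6 hIAPP and the set 7 mIAPP library (0.0328). Its correlation with the mitochondrial level was -0.0635, and the value in mIAPP islets was 1.13 with that level as covariate (adjusted p = 0.0002).

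Gbp2 (chr3:142620602-142638008, plus) was the gene of the 9 that differed between genotypes. It stood at 0.342, 2.20 and 4.99 CPM in hIAPP islets at 16.7 mM, against 0.417, 0.572 and 0.931 CPM in mIAPP islets at 16.7 mM. Of the hIAPP libraries, 7 lay above every mIAPP library and that of set 5, at 0.342 CPM, lay below them all, so the groups overlapped; they did so for all 9 genes, while 2.98% of all genes had no overlap. The log2 fold change was 1.61 ± 0.28 (adjusted p = 0.000255). Without the set 6 hIAPP library it was 1.51 (adjusted p = 0.000984), among libraries under 10% mitochondrial counts 1.40 (0.0447), and it passed under all 19 alternatives tried. At 11.1 mM, Gbp2 averaged 1.09 ± 0.448 CPM in hIAPP and 1.08 ± 0.600 CPM in mIAPP islets (SD, n = 8 each), a log2 fold change of 0.11 ± 0.28 (adjusted p = 0.943).

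The fitted glucose differences of Gbp2 had opposite signs in the genotypes. In hIAPP islets it rose by 0.86 ± 0.27 on the log2 scale at 16.7 mM (adjusted p = 0.00763, higher in 7 of 8 sets), against 0.596, 0.921 and 1.74 CPM at 11.1 mM. In mIAPP islets the log2 fold change was -0.64 ± 0.29 and did not pass (adjusted p = 0.0709, lower in 7 of 8 sets), with 0.280, 0.966 and 2.14 CPM at 11.1 mM. The interaction was 1.5 ± 0.40 (adjusted p = 0.0356, positive in 7 of 8 sets). That call was lost under 11 of 19 alternatives, at log2 values of 0.94 to 1.8: without set 1, 2, 4, 6 or 8, without the set 6 hIAPP library (1.42, adjusted p = 0.0584), without the block for set (1.8, 0.104), with no filter on low counts (1.5, 0.0542) and under both mitochondrial settings among them. The rise in hIAPP islets was lost under the mitochondrial settings, at 0.72 and 0.48.

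**Figure D4:**
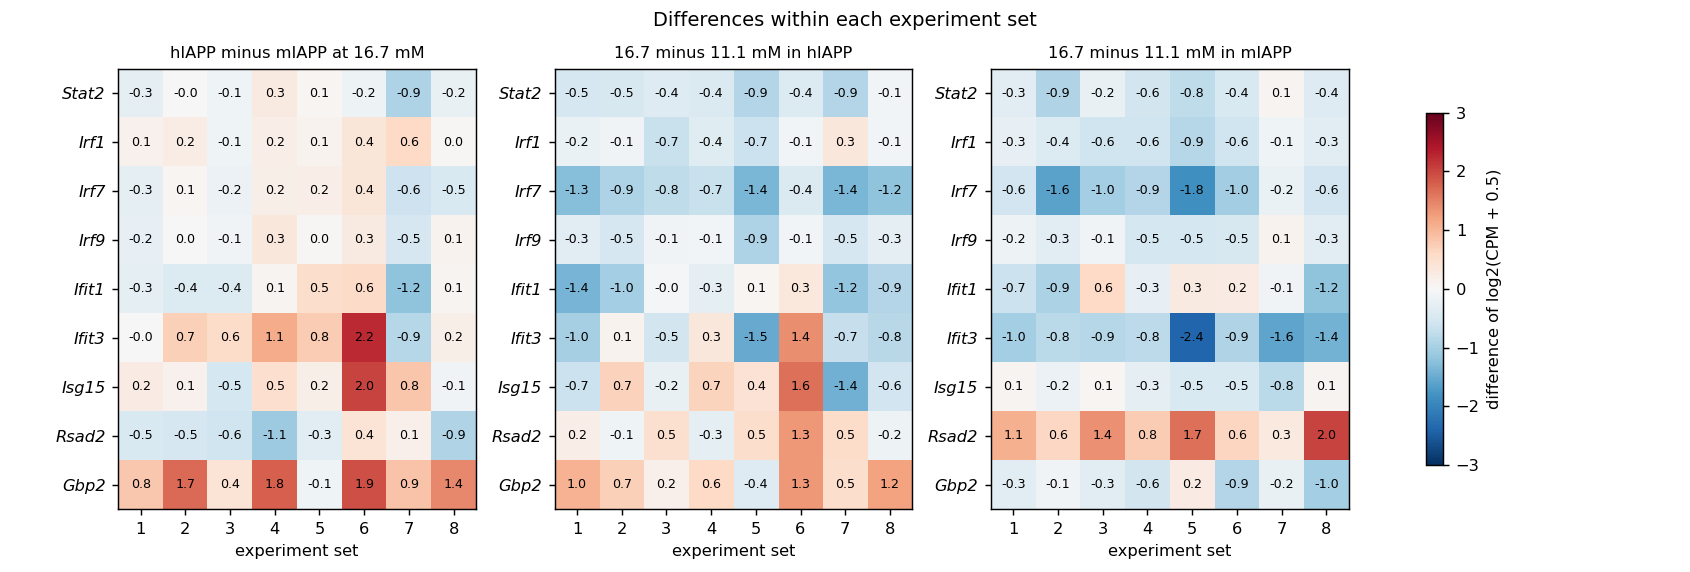
Difference of log2(CPM + 0.5) within each of the 8 experiment sets (columns) for the 9 genes (rows) in 3 comparisons; red is higher and blue lower in the group named first. Gbp2 is higher in hIAPP islets at 16.7 mM in 7 of 8 sets, Irf7 is lower at 16.7 mM in 8 of 8 sets of each genotype, and Ifit3 and Isg15 in hIAPP islets are high in set 6.

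Gene by gene, the most similar profiles differed across the 9. Profiles were compared over the 32 libraries after the set mean of each gene was removed, against 13141 genes with a mean of at least 1 CPM, as a description with no test. Gbp2 was closest to its family member Gbp6 (Pearson r = 0.83), then to S100a9 (0.807), a calcium-binding protein of neutrophils and myeloid cells, and to Plk2 (0.806). S100a9 had 25 to 773 counts per library from hIAPP and 0 from mIAPP islets kept at 16.7 mM, and 0 to 5 from hIAPP and 0 to 7 from mIAPP islets at 11.1 mM. Summed over 8 neutrophil markers, the set 6 hIAPP library stood at 33.2 CPM and the other hIAPP libraries at 16.7 mM at 3.18 to 7.86 CPM, against 2.12 to 9.74 CPM in mIAPP libraries at 16.7 mM and 4.55 to 10.7 CPM in hIAPP and 3.87 to 13 CPM in mIAPP libraries at 11.1 mM. Of these 8 markers, 3 passed the filter, with 1 higher and 1 lower in hIAPP islets at 16.7 mM, and Elane was at 0 in 3 of the 4 groups. The higher one was S100a9, which passed the filter only through the group where it was high, so its call carries no weight here. The part of these markers in the Gbp2 difference was not tested.

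Irf7 was closest to Fcho1 (r = 0.961), then to Ighm (0.954), the immunoglobulin mu chain of B cells, and to Psd (0.945). Irf9 was closest to Xaf1 (0.941), an interferon-induced gene of the apoptosis pathway, and next to Ms4a6c (0.874) and Bin2 (0.872). Stat2 was closest to Pan2 (0.963), which lies 10485 bases from it on the same chromosome, then to Sfswap (0.956) and Tchp (0.943). Ifit1 came nearest to Phf11d (0.862) and Rsad2 to Gprin3 (0.883), whereas Irf1 came nearest to Dennd4b (0.889) and Ifit3 to Lrrfip1 (0.821). Isg15 had no profile closer than that of Mcts2 (0.642). No gene was among the 3 closest to more than 1 of the 9.

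Residual levels of Stat2, Irf9 and Irf7 were positively correlated with each other. With group and set means removed, r over the 32 libraries was 0.665 for Stat2 and Irf9, 0.566 for Stat2 and Irf7 and 0.545 for Irf7 and Irf9. Irf1 showed 0.0562 with Stat2 and -0.532 with Ifit1. Among effectors, Ifit1 and Ifit3 had an r of 0.392, and 0.192 without the set 6 hIAPP library, while Ifit3 and Isg15 had 0.203, and -0.222 without that library. The libraries share sets and mitochondrial shares, so these values carry no test.

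The rest of the pathway was read from lists picked with earlier results of these data known. Of 13 interferon genes, 0 passed the filter. They summed to 29 counts over the 8 hIAPP and 29 over the 8 mIAPP libraries at 16.7 mM, and to 10 over hIAPP and 11 over mIAPP libraries at 11.1 mM. Ifnb1 and Ifng had 0 counts in all 32 libraries, and most of the counts belonged to Ifnz.

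Receptor and JAK-STAT genes were called higher in hIAPP islets at 16.7 mM, where Stat2 and Irf9 did not pass. Of 11 tested, 7 were higher in hIAPP than in mIAPP islets, 0 lower, with a median log2 fold change of 0.29. Among all genes 9.27% were called higher and 11.2% lower in that comparison, the shares against which this and the following lists stand. Of the cell type markers tested, 7 of 12 endothelial, 4 of 9 islet and 2 of 4 lymphocyte and plasmacytoid markers were lower in hIAPP islets, and 2 of 15 macrophage markers were higher and 2 lower; their part in the list counts was not tested. Stat3, which serves interleukin receptors, was higher by 0.72 ± 0.11 (adjusted p = 4.28e-05), Il10rb by 0.39 ± 0.10 (0.00646) and Ifnar2, a type I receptor chain, by 0.29 ± 0.08 (0.0133). With the mitochondrial level as covariate Il10rb was at 0.29 (adjusted p = 0.182) and Ifnar2 at 0.14 (0.476), whereas Stat3 passed under all 19 alternatives.

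Other members of the GTPase family of Gbp2 were called higher as well. Of 14 other GBP and IRG genes tested, 7 were higher in hIAPP islets at 16.7 mM and 0 lower, with a median log2 fold change of 0.52. Gbp6 stood at 2.54, 5.13 and 8.81 CPM in hIAPP islets, against 0.640, 1.86 and 2.99 CPM in mIAPP islets, higher in 8 of 8 sets (1.5 ± 0.21, adjusted p = 1.32e-05). Gbp5, a GTPase tied to inflammasome assembly, was higher by 1.03 ± 0.20 (adjusted p = 0.00102), Gbp8 by 0.89 ± 0.20 (0.0026) and Gbp3 by 0.83 ± 0.24 (0.0186), the last not passing in 5 of 19 alternatives, at 0.64 to 0.83, among them 0.69 without the set 6 library (0.0527). Near-identical members of this family can share reads, and Gbp2 shares 4.61% of its 31-base stretches with Gbp2b.

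Genes of the interferon gamma and MHC class I list gave 7 of 16 higher and 0 lower at 16.7 mM, at a median of 0.24. They included the adhesion receptor Icam1 (1.49 ± 0.27, adjusted p = 0.00033), the chemokine Cxcl10 (2.36 ± 0.52, 0.0027) and the class I genes H2-D1 (0.54 ± 0.13, 0.00395) and B2m (0.30 ± 0.08, 0.0103). With the mitochondrial covariate Cxcl10 (1.92, adjusted p = 0.106), H2-D1 (0.17, 0.494) and B2m (0.13, 0.528) did not pass, and without the block for set Icam1 (1.17, 0.0543), H2-D1 (0.50, 0.068) and B2m (0.30, 0.182) did not. Of 38 other antiviral genes, 7 were higher and 0 lower, led by Samd9l (0.64 ± 0.13, adjusted p = 0.00104), and the median was 0.06. Among 15 sensors and adaptors, Ticam1 and Ifih1 were higher, at 0.41 ± 0.09 (adjusted p = 0.00164) and 0.49 ± 0.14 (0.0131). With the mitochondrial covariate Samd9l (0.48, adjusted p = 0.0745), Ticam1 (0.33, 0.0711) and Ifih1 (0.40, 0.218) did not pass. Socs3, a feedback inhibitor of JAK kinases, was the 1 of 6 in its list that passed (0.64 ± 0.10, adjusted p = 7.14e-05). Among 5 other IRF genes, Irf3 was lower (-0.33 ± 0.12, adjusted p = 0.0489), but it did not pass in 14 alternatives and turned to 0.02 in another. At 11.1 mM, 0 genes of these 7 lists passed, with medians of -0.07 to 0.09.

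Interaction calls in these lists fell on Stat3 (0.74 ± 0.15, adjusted p = 0.005), Socs3 (0.83 ± 0.14, 0.00106), Ticam1 (0.52 ± 0.12, 0.0176), Gbp6 (1.74 ± 0.30, 0.000869) and Icam1 (1.5 ± 0.37, 0.0249), all positive as for Gbp2. None of the 5 passed among libraries under 10% mitochondrial counts, at 0.79 to 2.28, and without the block for set Ticam1 (0.55, adjusted p = 0.189) and Icam1 (1.10, 0.435) did not. With the mitochondrial covariate Stat3 (0.45, adjusted p = 0.0783) and Ticam1 (0.43, 0.108) did not pass. Leaving out a set ended the call of Icam1 for sets 2, 3, 4, 6 and 8, at 1.30 to 1.47, and that of Ticam1 for sets 1, 3 and 8, at 0.44 to 0.52.

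With glucose, the list counts stand beside 32.2% of all genes higher and 33.3% lower in hIAPP islets, and 24.9% higher and 22.7% lower in mIAPP islets, and nothing particular to a list is read from them. In hIAPP islets 7 of 11 receptor and JAK-STAT genes were higher at 16.7 than at 11.1 mM and 0 lower (median 0.30), while of 38 antiviral genes 7 were higher and 16 lower (median -0.11). In mIAPP islets these counts were 4 higher and 0 lower (0.18) and 4 higher and 14 lower (-0.25). By p value the fallers were led in both genotypes by Ifi35 (-0.77 ± 0.10 in hIAPP and -0.74 ± 0.10 in mIAPP) and Uba7, the activating enzyme for ISG15 (-1.11 ± 0.15 and -1.20 ± 0.15). Lgals3bp was the leading riser (1.23 ± 0.13 and 0.70 ± 0.13). Cmpk2 (0.62 ± 0.14, edgeR adjusted p = 0.000573) and Mx1 (0.68 ± 0.24, 0.0247) rose in mIAPP islets as Rsad2 did. Cmpk2 kept its call there under all 19 alternatives. The call of Mx1 was lost without the block for set (0.78, adjusted p = 0.0931), without set 1, 3, 7 or 8 and under both mitochondrial settings (0.64 and 0.26). The other GBP and IRG genes gave 5 higher and 0 lower of 14 in hIAPP islets (median 0.30), and 2 higher and 4 lower in mIAPP islets (-0.39). Of the 16 interferon gamma and MHC class I genes, 4 were higher and 5 lower in hIAPP islets (median -0.12), and 1 higher and 9 lower in mIAPP islets (-0.30). Of 15 sensors and adaptors, 4 were higher and 5 lower in hIAPP islets (-0.03), and 1 higher and 5 lower in mIAPP islets (-0.02). Of 5 other IRF genes, 3 were lower in each genotype, and of 6 feedback inhibitors 2 were higher and 2 lower in hIAPP islets and 1 higher and 0 lower in mIAPP islets.

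**Figure D5:**
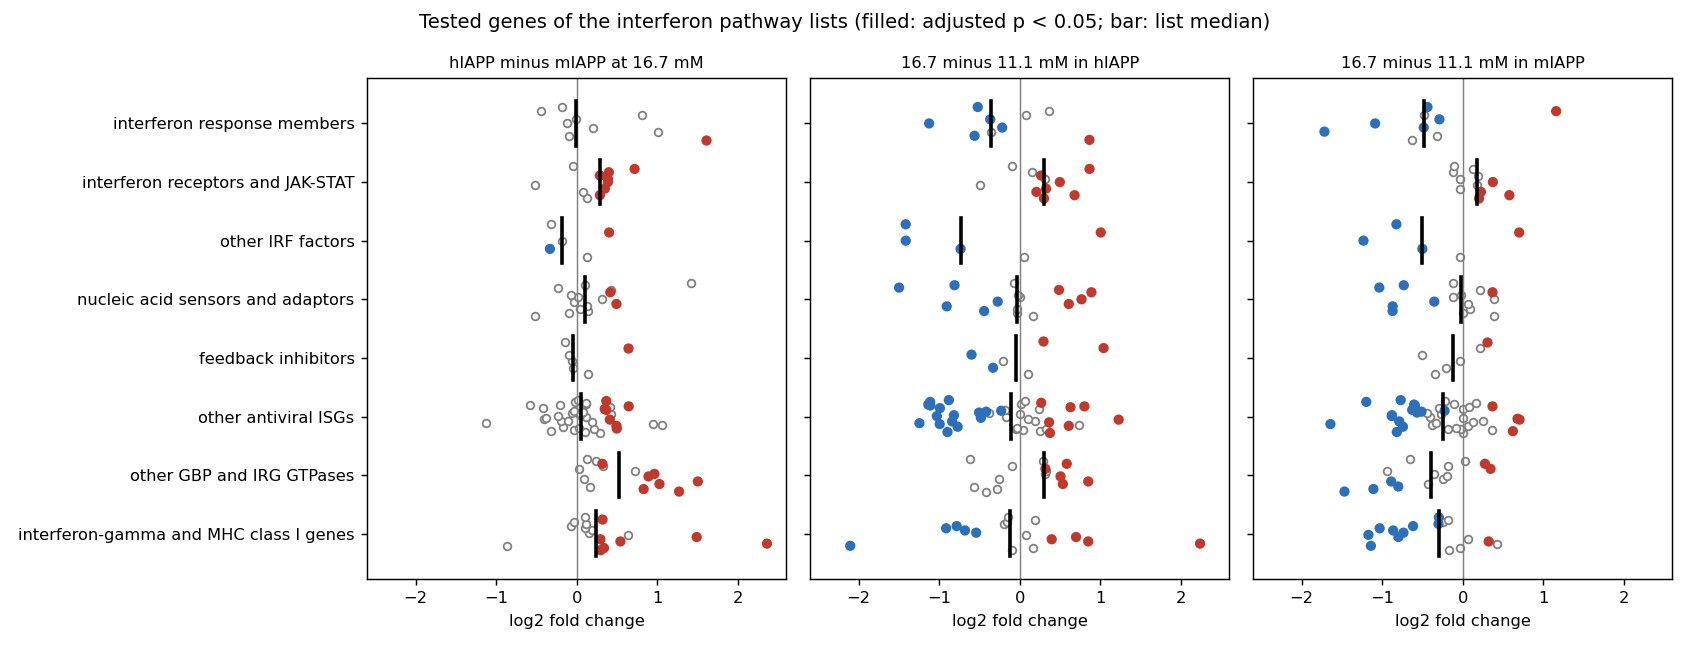
Log2 fold change (horizontal axis) of every tested gene in the 9 genes and 7 pathway lists (rows) for 3 comparisons; filled points passed an adjusted p of 0.05, red higher and blue lower, and the bar is the list median. Between genotypes at 16.7 mM, filled points are red in every row except that of the other IRF factors, which holds 1 red and 1 blue. Blue points dominate the antiviral list with glucose.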

How the data were processed

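Poly(A) RNA was sequenced from 32 islet libraries, 8 sets of 4 groups, after directional library preparation, per the labels' protocols. The authors deposited one table of expected counts per gene as whole numbers; bcl2fastq 1.8.4, kallisto 0.45.0 and GRCm38 are named, per the submitters' processing notes. How transcripts were summed and whether counting used strand are not given in the sources used here.

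Counts were scaled by TMM and tested with edgeR 4.0.16 (quasi-likelihood, robust) in R 4.3.3. The model held the 4 groups and a block for set (21 residual degrees of freedom), genes passed filterByExpr, and p values were adjusted by Benjamini-Hochberg over 16428 genes in each of 5 comparisons, with a threshold of 0.05. CPM was computed from the deposited counts, and SE is the size of the log2 fold change over the square root of F. The pairing comes from the labels, which give each set all 4 groups. Same-set libraries correlated at a mean r of 0.168 to 0.362 after group means were removed, and single sets went as low as -0.23. The interaction is the glucose difference in hIAPP minus that in mIAPP islets. Floors (3 counts) cover counting error only.

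The 9 genes, 8 pathway lists and 5 marker lists were chosen with earlier results of these data known. The genes named from a list are among the called genes of the comparison described, at most 4 a direction by smallest p, with the interferon genes added; some items are not reported here; marker genes and Ifit3b were named after their values were seen. For each of the 9, the 3 genes of most similar profile are searched among genes with a mean of at least 1 CPM. Alternatives were DESeq2 1.42.0, limma 3.58.1 with voom, RLE scaling, scaling without mitochondrial and insulin genes, no filter, no block, a mitochondrial covariate, libraries under 10% mitochondrial counts, and left-out sets or libraries; leaving out the set 6 hIAPP library, alone or with the set 7 mIAPP library, and adding Ifit3b to Ifit3, also without the set 6 hIAPP library, were chosen after seeing the data. Shared 31-base stretches came from GENCODE M21 transcripts and promoters from RefSeq (Python 3.11.15). The tests were also tested on simulated data.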

Additional observations from a re-analysis of the deposited data

Results flagged for a closer look

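Each of the interferon response genes was checked in each group of 8 libraries, which gave 36 checks. A highest or lowest library stood far from the rest of its group 10 times. The checks reuse the same libraries and are not independent, and the hIAPP library of set 6 at 16.7 mM gave 5 of the 10 flags. The chance rate of about 1 in 20 is per check, so it cannot be compared with this count. The hIAPP library of set 6 at 16.7 mM stood high for Irf7 at 4.58 CPM (next 3.00), Ifit1 at 5.90 CPM (next 3.71), Ifit3 at 5.64 CPM (next 2.41), Isg15 at 2.82 CPM (next 0.563) and Rsad2 at 10.3 CPM (next 5.13). The same library held the highest neutrophil marker sum of its group, 33.2 CPM, most of it from S100a9. Of the 8 markers in that sum, Ly6g, Elane and Ngp were at 0 in the whole group. Only 3 markers were tested between genotypes at 16.7 mM, with 1 called higher, 1 lower and a median log2 fold change of -0.78. The sum therefore says little about neutrophils as a class, and whether it bears on the 5 genes was not tested. The mIAPP library of set 7 at 16.7 mM was low for Irf1 at 23.1 CPM (next 31.1) and high for Ifit1 at 7.46 CPM (next 4.10). It had 37% mitochondrial counts, and the part of that share in these values was not tested. The mIAPP library of set 7 at 11.1 mM was low for Irf1 at 25.2 CPM (next 44.7) and high for Ifit3 at 4.77 CPM (next 2.72). The hIAPP library of set 3 at 16.7 mM was high for Irf9 at 18.9 CPM (next 16.2).

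The glucose effect differed with genotype by the interaction test (edgeR) for 6 of the genes described. The log2 difference was 1.5 for Gbp2, 1.74 for Gbp6, 1.5 for Icam1, 0.83 for Socs3, 0.74 for Stat3 and 0.52 for Ticam1. Of all 16428 genes tested, 513 (3.12%) were called in this test. The call was lost under 11 of the alternatives for Gbp2, 7 for Icam1 and 6 for Ticam1. It was lost under 2 for Stat3 and under 1 each for Socs3 and Gbp6. Among libraries under 10% mitochondrial counts none of the 6 passed, where 7 of 17145 genes were called.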

How the results depend on the processing

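Of 865 values of the 9 genes under alternatives, 769 kept direction and side of the threshold, 35 lost the call, 14 gained it and 47 changed sign. The cause of each change was not tested. The number of the 9 genes called between genotypes at 16.7 mM was 2 in place of 1 with DESeq2, limma voom, Ifit3 and Ifit3b added (with or without the set 6 hIAPP library), without the set 6 hIAPP library and without that and the set 7 mIAPP library, and 1 to 2 with a set left out. Of all genes, 20.5% were called in the main fit, 25% with DESeq2, 25.9% with limma voom and 20.5% with Ifit3 and Ifit3b added. Without the set 6 hIAPP library 16.6% were called, with or without Ifit3b added. Without that and the set 7 mIAPP library 10.6% were called, and with a set left out 9.89% to 23.2%. For glucose in hIAPP islets the number of the 9 genes called was 2 in place of 6 with the mitochondrial covariate and 3 among libraries under 10% mitochondrial counts, where 22.5% and 22.6% of all genes were called in place of 65.5%. For the interaction it was 0 in place of 1 without the replicate block, with no filter, under both mitochondrial settings and without the set 6 hIAPP library (with or without Ifit3b added), 2 with limma voom, and 0 to 1 with a set left out. The interaction was called for 3.12% of all genes in the main fit, 1.19% without the block and 1.28% with no filter. The share was 5.76% with limma voom, 2.01% with the mitochondrial covariate and 0.0408% under 10% mitochondrial counts. Without the set 6 hIAPP library it was 2.86%, and with a set left out 1.46% to 3.39%. The replicate block moved the counts over all genes: 3371 genes between genotypes at 16.7 mM with it and 1301 without it, and 513 and 196 for the interaction. Other settings gave 4107 and 959 with DESeq2, 4259 and 946 with limma voom, 2492 and 361 with no filter, 814 and 331 with the mitochondrial covariate, 1133 and 7 under 10% mitochondrial counts, 1755 between genotypes without both libraries, and 2108 without the set 7 mIAPP library. With a set left out they were 1623 to 3841 and 239 to 558, the fewest without set 1; without set 2 they were 2215 and 310, without set 6 1852 and 280, without set 7 the first was 1943, and without set 8 the second was 337.

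With the mitochondrial covariate these log2 values changed sign. Between genotypes at 16.7 mM, Stat2 was 0.090, Irf7 0.071, Irf9 0.17, Ifit1 0.44 and Irf3 0.021. For glucose in hIAPP islets, Ifit1 was 0.30, Ifit3 0.26, Isg15 -0.93, Mavs -0.14 and Usp18 -0.078, and in mIAPP islets Ifit1 was 0.041. For the interaction, Stat2 was 0.18, Irf7 0.16, Irf9 0.11 and Ifit1 0.26. Under 10% mitochondrial counts, Irf9 was 0.017 between genotypes at 16.7 mM, Stat2 0.012, Irf9 -0.16 and Isg15 -0.99 at 11.1 mM, Ifit1 0.37 and Gbp11 0.12 for glucose in mIAPP islets, and Irf7 0.45 and Irf9 0.17 for the interaction. Irf9 at 16.7 mM was 0.0022 with no filter, 0.050 without the set 7 mIAPP library and 0.018 without both libraries. Isg15 was -0.091 at 11.1 mM with limma voom, -0.38 for glucose in hIAPP islets without the set 6 library and -0.30 without both, and -0.018 for the interaction without both, where Irf7 was 0.035 without the set 7 library.

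With a set left out, changes of sign fell on values that had not passed. Between genotypes at 16.7 mM the range was -0.056 to 0.070 for Irf9 and -0.24 to 0.076 for Ifit1. At 11.1 mM it was -0.17 to 0.010 for Irf7, -0.0017 to 0.088 for Irf9, -0.22 to 0.53 for Isg15 and -0.051 to 0.29 for Gbp2. It was -0.39 to 0.57 for Isg15 with glucose in hIAPP islets. For the interaction it was -0.16 to 0.060 for Stat2, -0.15 to 0.15 for Irf7 and -0.14 to 0.019 for Irf9. Isg15 had 0 to 96 counts per library.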

Other observations

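From the interferon gamma and MHC class I list, 4 genes of the immunoproteasome, which cuts peptides for MHC class I, were lower at 16.7 than at 11.1 mM in both genotypes; they were picked from 16 tested after their values were seen, and 33.3% of all genes were lower in hIAPP and 22.7% in mIAPP islets. Psmb9, a catalytic subunit, averaged 4.80 ± 0.866 CPM in hIAPP islets at 16.7 mM and 9.04 ± 1.09 CPM at 11.1 mM, and 4.49 ± 0.728 CPM in mIAPP islets at 16.7 mM and 9.15 ± 2.30 CPM at 11.1 mM (SD, n = 8 each). Its groups did not overlap in either genotype, as for 22.7% of all genes in hIAPP and 4.05% in mIAPP islets. Log2 fold changes of Psmb9 were -0.91 ± 0.15 in hIAPP (edgeR adjusted p = 7.96e-06) and -1.03 ± 0.15 in mIAPP islets (4.17e-06). Psmb8, another catalytic subunit, was at -0.68 ± 0.12 and -0.86 ± 0.12 (adjusted p = 1.75e-05 and 1.75e-06), Psmb10 at -0.54 ± 0.15 and -0.74 ± 0.15 (0.003 and 0.000334), and Psme1, an activator subunit, at -0.78 ± 0.10 and -0.62 ± 0.10 (3.7e-07 and 2.45e-05). Psme2, the partner of Psme1, was at -0.19 ± 0.08 in hIAPP (0.0511, not passing) and -0.30 ± 0.09 in mIAPP islets (0.00508). Psmb8 did not pass in hIAPP islets with the mitochondrial covariate (-0.48, adjusted p = 0.0535) or among libraries under 10% mitochondrial counts (-0.44, 0.121). Under all 19 alternatives Psmb9 and Psme1 passed in both genotypes and Psmb8 and Psmb10 in mIAPP islets; Psmb10 in hIAPP islets was not recomputed under them. None of the 4 passed between genotypes at 16.7 mM, where log2 fold changes were -0.07 to 0.18 and adjusted p values 0.256 to 0.66. The macrophage marker sum was lower at 16.7 mM as well, and its part in these values was not tested.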
